A study of Homo sapiens with 12 samples.

Results

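Caspases are proteases that cut proteins after aspartate residues, and the mRNA of 7 caspase genes was followed here in 2 hepatocellular carcinoma lines. The genes were CASP8, CASP10, CASP9, CASP2, CASP6, CASP1 and CASP4, and every probe set that the platform annotation maps to exactly 1 of these symbols was taken. This gave 26 of the 54613 probe sets tested, for 7 of 19775 genes with a probe set of their own. CASP2 had 7 probe sets, CASP1 had 5, CASP10 had 4, CASP8 and CASP9 had 3 each, and CASP6 and CASP4 had 2 each. One further probe set is mapped to CASP1 together with CARD16 and was not read as either gene. Other caspase genes were not analysed here.

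Both lines derive from hepatocellular carcinoma, Hep3B with much of its liver-specific expression kept and SNU449 with most of it lost. The labels call Hep3B sensitive and SNU449 resistant to DAAD2, the amide of (+)-dehydroabietylamine, a diterpene amine, with N-acetyl-L-cysteine. Hep3B cells received 2 μM DAAD2, SNU449 cells received 20 μM DAAD2 and the control cells of both lines received 0.1% DMSO, each for 72 h, with 3 Affymetrix U133 Plus 2.0 arrays in each of 4 groups (12 arrays). The dose was thus different in the 2 lines, and a difference between the lines cannot be told apart from a difference between the doses.

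Caspases are made as inactive precursors and are switched on by cleavage or by assembly into a platform, so their activity can change without any change of their mRNA. Apical caspases receive the death signal, caspase-8 and caspase-10 at death receptors, caspase-9 on the apoptosome that cytochrome c from mitochondria builds with APAF1, and caspase-2 on the PIDDosome. Caspase-8, caspase-10 and caspase-9 act on executioner caspases, which cut nuclear and cytoskeletal proteins. The inflammatory caspases 1 and 4 cut gasdermin D, and caspase-1 also matures interleukin-1β. The arrays measured the mRNA only.

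Values are RMA log2 levels, on which 1 unit is a doubling, and levels of different probe sets are not comparable with each other. Array medians lay between 3.71 and 3.85, and a probe set near that range is dim. Of the 26 caspase probe sets, 17 had a mean over the arrays above the median of all values. The line labels fitted the markers: albumin (ALB) averaged 14.53 in Hep3B and 3.18 in SNU449 controls, and vimentin (VIM) averaged 10.24 and 13.94. PTPRC, the pan-leukocyte marker, lay between 2.88 and 3.28 on the 12 arrays. The other listed leukocyte markers were not all that low. CD14 averaged 5.37 in Hep3B and 3.32 in SNU449 controls, CD3E 4.35 and 4.95, and MS4A1 3.09 and 3.47. CD68 had no probe set of its own. The 3′ minus 5′ signal of GAPDH, a sign of RNA integrity, was 1.99 on array 2 of SNU449 with DAAD2 and 0.34 to 0.97 on the other SNU449 arrays. In Hep3B it was 1.51 on DMSO array 1 and 0.45 to 1.05 on the others. The same measure of ACTB ran from 1.82 to 3.27, with its highest value on Hep3B DAAD2 array 3. The labels do not state whether a group's arrays stand for separate cultures, so the tests weigh differences against a spread that may be only technical. In bulk RNA, fewer cells of a kind and less RNA per cell cannot be told apart.

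In Hep3B 0 of 26 caspase probe sets passed limma's test at a Benjamini-Hochberg adjusted p under 0.05, and neither did any other probe set (0% of all called higher and 0% called lower). That background depended on the fit. A trended, robust variance model called 271 probe sets higher and 48 lower, and all arrays in one fit called 123 and 31. The caspase count stayed at 0 in both, but so few of the 54613 were called that 0 of 26 carries little weight. In SNU449 1 of 26 passed, CASP2 226032_at, which fell (1.04% of all probe sets were called higher and 0.417% lower). CASP2 226032_at also was the only 1 of the 26 whose response differed between the lines, a test in which 0.797% of all were called higher and 1.21% lower in SNU449. Between the untreated lines 7 of 26 differed, 3 higher and 4 lower in SNU449 (14.8% and 14.5% of all), a share near that of all probe sets. CASP4 209310_s_at, of a caspase that senses bacterial lipopolysaccharide, showed the largest of these differences. It was an estimated 11.2-fold lower with SNU449 values under the median of their array raised to it. The untreated lines did not overlap for 4 caspase probe sets that were higher and 7 that were lower in SNU449, against 21.4% and 20.2% of all.

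The median of the 26 differences between DAAD2 and DMSO in Hep3B was 0.01 on the log2 scale, beside -0.02 over all probe sets. There, 13 of the 26 lay above 0 and 13 below. At an unadjusted p under 0.05, 0 caspase probe sets were higher and 1 was lower, while 9.53% of all probe sets were higher and 5.47% lower. The 3 DAAD2 arrays lay entirely above the 3 DMSO arrays in 0 and entirely below in 2 of the 26, against 11.0% and 9.99% of all probe sets. The 95% intervals of the 26 differences reached from a 2.36-fold lower to a 1.74-fold higher level with DAAD2. Taking for each gene its brightest probe set, that is the one with the highest mean over the 12 arrays, the 7 intervals lay between 1.27-fold lower and 1.51-fold higher. Larger changes of these 7 probe sets were thus outside the intervals, and smaller ones could not be resolved with 3 arrays a group.

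For SNU449 the median of the 26 differences was -0.07, beside 0.01 over all probe sets, with 11 above 0 and 15 below. At an unadjusted p under 0.05, 3 were higher and 3 lower, against 6.00% and 5.80% of all. The DAAD2 arrays lay above all DMSO arrays for 3 and below them for 2 probe sets, where 8.34% and 7.76% of all probe sets did so. A single call among 26 gives no share that can be read against that background.

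**Figure D1:**
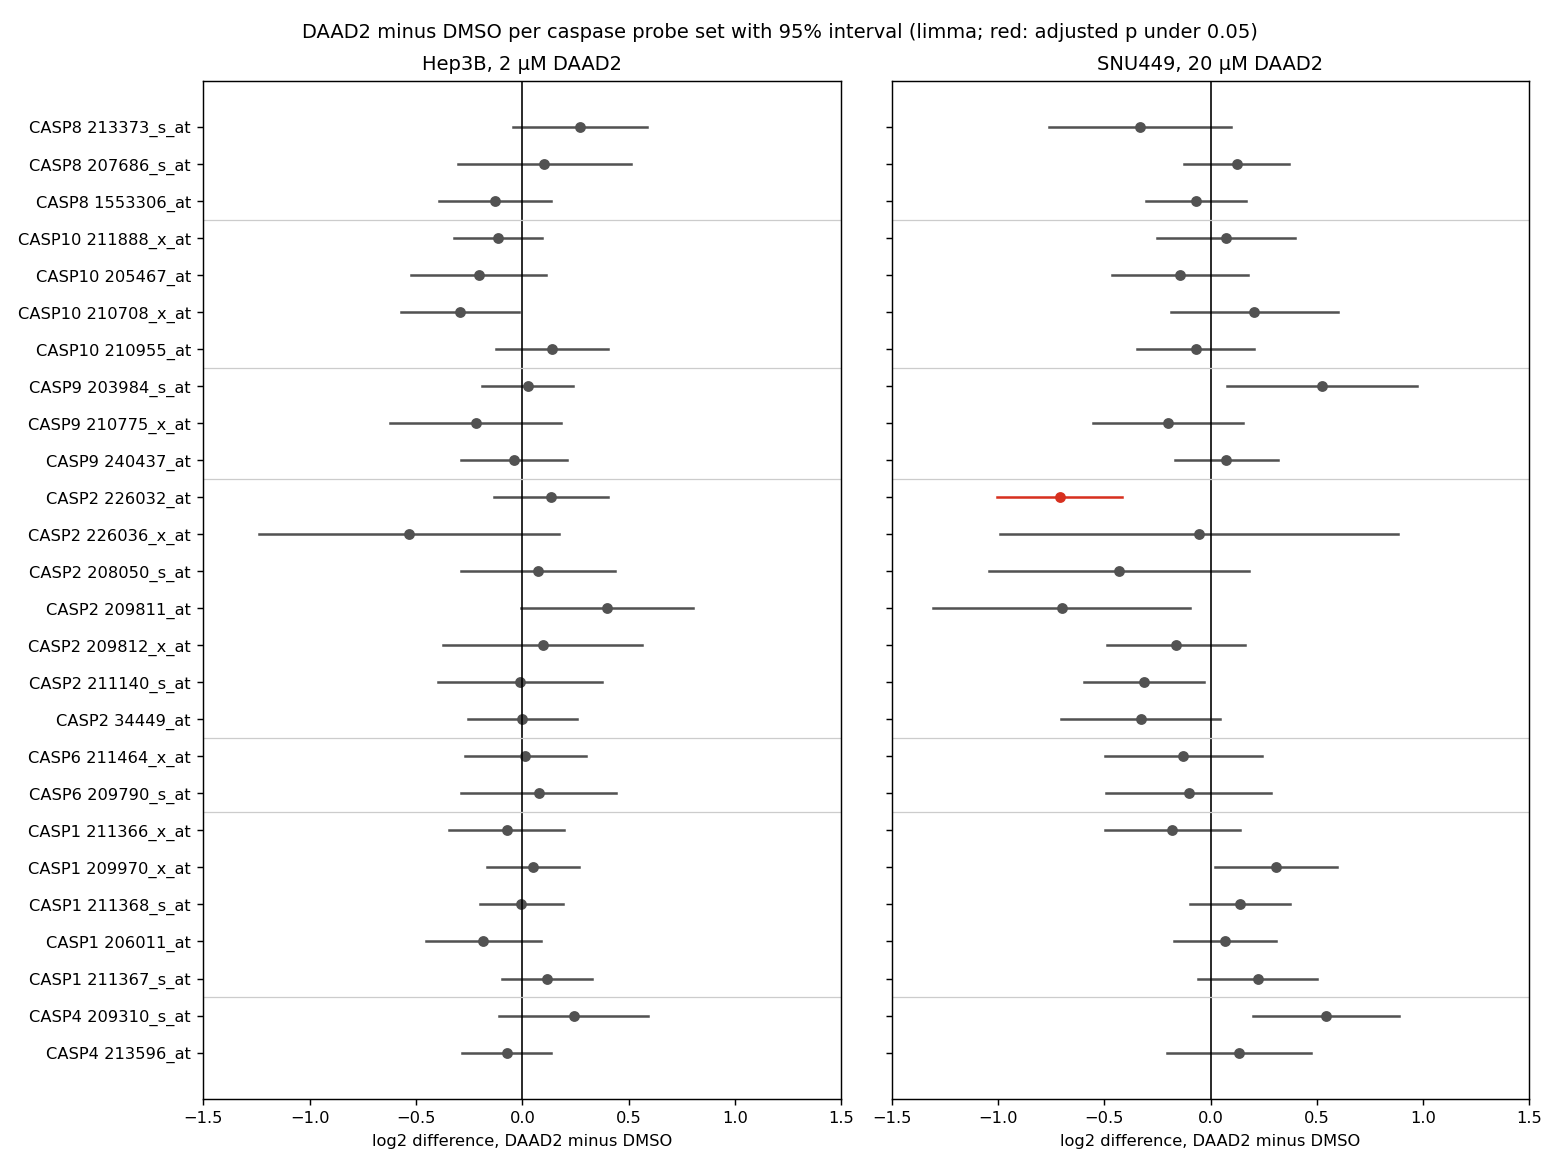
Log2 difference between DAAD2 and DMSO arrays (x axis) for each of the 26 caspase probe sets (rows) in Hep3B at 2 μM (left) and SNU449 at 20 μM (right), with points for limma's estimate, bars for its 95% interval and red for an adjusted p under 0.05. All Hep3B probe sets are grey with differences between -0.53 and 0.40, and CASP2 226032_at at -0.71 in SNU449 is the only red one.

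Caspase-8 and caspase-10 are recruited to death receptors by the adaptor FADD. The brightest CASP8 probe set, 213373_s_at, gave log2 levels of 7.60, 7.10 and 7.34 on the Hep3B DMSO arrays and 7.58, 7.75 and 7.52 on the Hep3B DAAD2 arrays. In SNU449 it gave 7.13, 7.19 and 7.71 with DMSO and 6.71, 7.15 and 7.16 with DAAD2. The groups overlapped in both lines. With DAAD2 the level was 0.27 higher in Hep3B (SE 0.14, limma adjusted p = 0.399) and 0.33 lower in SNU449 (log2 difference -0.33, SE 0.19, adjusted p = 0.582). The 2 responses differed by -0.60 (SE 0.25), which did not pass the test (adjusted p = 0.288).

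The untreated lines carried nearly equal CASP8 213373_s_at levels, with means of 7.34 ± 0.25 (SD, n = 3) in Hep3B and 7.34 ± 0.32 (SD, n = 3) in SNU449. The interval of that difference was -0.42 to 0.42. Of the 2 dimmer CASP8 probe sets, 207686_s_at lay between 3.42 and 3.76 in Hep3B controls and between 3.85 and 4.01 in SNU449 controls, a difference of 0.34 that fell short of the threshold (adjusted p = 0.0542). The other, 1553306_at, was below the array median on all 12 arrays.

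CASP10 was dim, and its brightest probe set 211888_x_at had group means of 4.45, 4.34, 4.36 and 4.43 in Hep3B DMSO, Hep3B DAAD2, SNU449 DMSO and SNU449 DAAD2. The ending _x_at marks probe sets whose probes may also match other transcripts. Its Hep3B DAAD2 arrays, at 4.35, 4.39 and 4.28, lay just below the DMSO arrays, at 4.41, 4.53 and 4.43, and the difference of -0.11 had an adjusted p of 0.601. Probe set 210708_x_at was the only caspase one in Hep3B with an unadjusted p under 0.05: it gave 4.37, 4.09 and 3.96 with DMSO and 3.76, 3.93 and 3.85 with DAAD2, a difference of -0.29 (SE 0.12, limma adjusted p = 0.307). Here too no DAAD2 array reached a DMSO array. Without Hep3B DMSO array 1, the Hep3B array with the high GAPDH 3′ minus 5′ signal, the difference was -0.18.

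Between the untreated lines CASP10 205467_at was 1.66-fold lower in SNU449 (log2 difference -0.73, SE 0.12, limma adjusted p = 0.00125). The Hep3B DMSO arrays gave 4.89, 4.93 and 4.62 and the SNU449 DMSO arrays 3.95, 4.15 and 4.14, so the lines did not overlap, and the SNU449 values were close to the array medians. The remaining 3 CASP10 probe sets showed differences between -0.10 and 0.07 and did not pass the test. The CASP10 probe sets therefore disagreed on a line difference.

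Caspase-9 is the apical caspase of the mitochondrial route. CASP9 203984_s_at, its brightest probe set, was at 7.08, 7.17 and 7.02 in Hep3B controls and at 7.03, 7.18 and 7.13 in Hep3B with DAAD2, a difference of 0.03 with an interval from -0.19 to 0.24. The SNU449 controls were spread more widely, at 5.96, 6.20 and 6.79, and the SNU449 DAAD2 arrays were at 6.76, 6.95 and 6.82. The lowest DAAD2 array thus lay just under the highest control array. The difference of 0.52 (SE 0.20) had an unadjusted p of 0.0261 in limma and an adjusted p of 0.317, and the test of the difference between the lines gave 0.50 (SE 0.23, adjusted p = 0.358).

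In DMSO, CASP9 203984_s_at was 1.71-fold lower in SNU449 than in Hep3B (log2 difference -0.77, SE 0.19, limma adjusted p = 0.0140), and the arrays of the lines did not overlap. Without SNU449 DMSO array 2 the adjusted p was 0.0532. The other CASP9 probe sets, 210775_x_at and 240437_at, differed by -0.06 and 0.04 between the untreated lines, and neither passed. Probe set 210775_x_at ranged from 5.09 to 5.94 over the 12 arrays, and 240437_at was below the array median on all of them.

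Caspase-2 is one of the most conserved members of the family and has been tied to genotoxic and mitotic stress. Its brightest probe set, CASP2 226032_at, was at 8.35, 8.41 and 8.45 in SNU449 controls and fell to 7.49, 7.91 and 7.68 with DAAD2. All 3 DAAD2 arrays were below all control arrays. The fall was 1.64-fold (log2 difference -0.71, SE 0.13, interval of the DAAD2 over DMSO ratio 0.499 to 0.750, limma adjusted p = 0.0374). In Hep3B the same probe set was at 8.11, 7.90 and 8.09 with DMSO and at 8.35, 8.16 and 8.00 with DAAD2, and the groups overlapped (log2 difference 0.13, SE 0.12, adjusted p = 0.639).

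The response of CASP2 226032_at was lower in SNU449 than in Hep3B by 0.84 (log2 difference -0.84, SE 0.18, interaction term of limma over 12 arrays, adjusted p = 0.0286). The SNU449 call was lost with any of the 3 DMSO arrays, DAAD2 array 1 or DAAD2 array 3 left out (limma adjusted p between 0.0863 and 0.178). Calls over all probe sets, 570 higher and 228 lower on the full set of arrays, fell too. In those runs 93 to 424 were higher and 11 to 107 lower. Without DAAD2 array 2, the one with the high GAPDH 3′ minus 5′ signal, the adjusted p was 0.0239 with a log2 difference of -0.82. Of all probe sets, 595 were then higher and 573 lower. Centring each array on its median (adjusted p = 0.0613) or taking the replicate number as a block (adjusted p = 0.0809) also ended the call. The estimates without 1 array lay between -0.82 and -0.61. For the difference between the lines the limma adjusted p ran from 0.0104 to 0.0825 when 1 array was left out. The call was lost without Hep3B DMSO array 1 or 2, Hep3B DAAD2 array 1 or 2, SNU449 DMSO array 2 or 3, or SNU449 DAAD2 array 1 or 3. Calls over all probe sets fell in those runs too, from 435 higher and 661 lower to 223 to 395 higher and 211 to 428 lower.

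All 7 CASP2 probe sets had a negative difference in SNU449, from -0.71 to -0.05, but only 226032_at passed. Probe set 209811_at had 4.52, 5.04 and 5.53 with DMSO and 4.10, 4.12 and 4.76 with DAAD2, an overlapping pair of groups (log2 difference -0.70, SE 0.27, limma adjusted p = 0.324). Probe set 211140_s_at, near the array median, gave 3.77, 3.64 and 3.91 with DMSO and 3.35, 3.41 and 3.62 with DAAD2, with no overlap (-0.31, SE 0.12, adjusted p = 0.351). The least precise was 226036_x_at, whose SNU449 DAAD2 arrays ranged from 5.03 to 6.94, and which also gave the most negative Hep3B estimate (-0.53, SE 0.31, adjusted p = 0.462). In Hep3B the 7 differences lay on both sides of 0, up to 0.40 for 209811_at (SE 0.18, adjusted p = 0.342). With the mean of its 7 probe sets as the value of the gene, CASP2 gave -0.39 in SNU449 (SE 0.14, limma adjusted p = 0.239 over all genes) and was not called. That mean weighs dim probe sets alike: 211140_s_at and 34449_at were each above the array median on 1 of 12 arrays. It therefore cannot show whether the fall was particular to 226032_at.

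SNU449 controls carried more CASP2 signal than Hep3B controls. Of the 7 probe sets 3 passed: 209811_at by 1.04 (limma adjusted p = 0.00819), 211140_s_at by 0.39 (adjusted p = 0.0269) and 226032_at by 0.37 (adjusted p = 0.0201). The means of 211140_s_at were at or below the array medians in both lines, 3.39 in Hep3B and 3.77 in SNU449. With Hep3B values under the median of their array raised to it, no higher level in SNU449 remained (0.994-fold). The call of 211140_s_at thus does not show a difference above background. The other 4 gave differences between 0.02 and 0.48, all positive, and did not pass. The arrays of the lines did not overlap for any of the 3 called probe sets. The call of 226032_at was lost without Hep3B DMSO array 2 or SNU449 DMSO array 2 or 3, with adjusted p up to 0.0742, and that of 211140_s_at without Hep3B DMSO array 2 or 3 or SNU449 DMSO array 1 or 3, with adjusted p up to 0.105.

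The sequence before the first of the 2 listed CASP2 start sites is shown because CASP2 was the only member called with DAAD2. It covers the 250 bases upstream of the start on the plus strand, chr7:143288101-143288350 in GRCh38.p14 (RefSeq), written 5′ to 3′, and capitals mark matches to GGGCGG (a GC box) or CCAAT on either strand.
CASP2: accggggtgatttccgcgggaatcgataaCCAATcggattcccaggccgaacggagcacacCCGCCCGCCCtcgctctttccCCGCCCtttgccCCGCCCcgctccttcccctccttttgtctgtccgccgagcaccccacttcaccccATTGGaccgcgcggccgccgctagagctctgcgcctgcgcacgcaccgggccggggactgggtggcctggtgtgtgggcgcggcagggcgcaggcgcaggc
This window held 29 CpG dinucleotides, against a median of 11 over the 35116 windows of the same length in the promoter table. It had 4 matches to GGGCGG, of which some overlap, and 2 to CCAAT. The window of the other CASP2 start held 2 CpG and no match to either motif. A match is a description of the letters and not a known binding site.

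Caspase-6 is an executioner caspase that cuts nuclear lamins. Its 2 probe sets were both bright, and neither passed the test with DAAD2 in either line. CASP6 211464_x_at had group means between 7.32 and 7.45, with differences of 0.01 in Hep3B (interval -0.27 to 0.30) and -0.13 in SNU449 (interval -0.50 to 0.24). CASP6 209790_s_at differed by 0.08 in Hep3B and by -0.10 in SNU449, and its adjusted p was 0.864 and 0.897 in limma.

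The 2 CASP6 probe sets disagreed between the untreated lines. Probe set 209790_s_at was at 7.77, 7.83 and 7.51 in Hep3B and at 6.87, 7.04 and 6.72 in SNU449, a 1.77-fold lower level in SNU449 with no overlap (log2 difference -0.83, SE 0.13, limma adjusted p = 0.000993). Probe set 211464_x_at gave 7.22, 7.48 and 7.62 against 7.51, 7.31 and 7.53 and differed by 0.01 (interval -0.28 to 0.30). A lower CASP6 mRNA in SNU449 was thus seen with 1 of the 2 probe sets only.

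Caspase-1 is the protease of the inflammasome. The brightest CASP1 probe set, 211366_x_at, lay between 4.30 and 5.15 on the 12 arrays, and the other 4 had means over the arrays of 2.99 to 3.88. CASP1 mRNA was thus dim in both lines. In SNU449, 209970_x_at was at 3.64, 3.47 and 3.87 with DMSO and at 3.97, 3.92 and 4.02 with DAAD2. These groups did not overlap, and the difference of 0.31 (SE 0.13) had an adjusted p of 0.374 in limma. Probe set 211368_s_at, below the array medians throughout, also did not overlap (difference 0.14, adjusted p = 0.710), and the brightest one, 211366_x_at, gave the opposite sign (-0.18, adjusted p = 0.725).

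No CASP1 probe set passed the test in Hep3B, where the 5 differences lay between -0.18 and 0.11. All 5 CASP1 estimates were lower in SNU449 than in Hep3B controls, from -0.26 to -0.04, and none passed (adjusted p from 0.0856 to 0.799). The lines did not overlap for 211366_x_at, at 4.80 to 5.15 in Hep3B and 4.74 to 4.75 in SNU449, or for 211368_s_at, at 3.12 to 3.18 and 2.88 to 2.96. Probe set 211368_s_at passed with arrays centred on their median (adjusted p = 0.0466) and with a trended, robust variance model (adjusted p = 0.0469), and 211366_x_at passed without Hep3B DMSO array 3 (adjusted p = 0.0349).

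Caspase-4 binds bacterial lipopolysaccharide in the cytosol. CASP4 209310_s_at was at 7.25, 7.66 and 7.03 in Hep3B controls and at 3.90, 3.78 and 3.48 in SNU449 controls. The SNU449 values were near the array medians, where signal cannot be told from background. The size of the difference is thus a lower bound with respect to background, but not to sampling error. With SNU449 values under the median of their array raised to it, the level was at least 11.2-fold lower in SNU449, from a Hep3B mean of 7.31 and a measured SNU449 mean of 3.72 (limma adjusted p = 6.25e-07). The other CASP4 probe set, 213596_at, lay between 3.06 and 3.57 on all arrays, under the array medians, and differed by -0.12 (adjusted p = 0.372).

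With DAAD2, CASP4 209310_s_at was at 7.63, 7.53 and 7.50 in Hep3B, within the range of its controls, a difference of 0.24 (SE 0.15, limma adjusted p = 0.507). In SNU449 the DAAD2 arrays, at 4.11, 4.19 and 4.49, all lay above the DMSO arrays. That difference was 0.54 (SE 0.15, unadjusted p = 0.00609) and did not pass after adjustment (adjusted p = 0.152). The 2 responses differed by 0.30 (SE 0.23, adjusted p = 0.611). Even with DAAD2, the highest SNU449 array was more than 2 log2 units below the lowest Hep3B array.

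The 250 bases before the CASP4 start are shown because this gene had the largest difference between the lines. They lie on the minus strand at chr11:104968575-104968824 in GRCh38.p14 (RefSeq), written 5′ to 3′ with the same marking.
CASP4: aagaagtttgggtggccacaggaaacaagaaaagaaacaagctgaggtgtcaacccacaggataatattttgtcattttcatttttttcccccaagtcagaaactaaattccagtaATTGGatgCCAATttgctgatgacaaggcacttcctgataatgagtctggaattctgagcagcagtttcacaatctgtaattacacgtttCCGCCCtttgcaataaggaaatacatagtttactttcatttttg
The CASP4 window held 2 CpG, fewer than the 29 before the first CASP2 start, and its GC content was 38.0% against 71.2%. It had 1 match to GGGCGG and 2 to CCAAT. Over the 35116 windows, 42.6% held GGGCGG, 32% held CCAAT, 10.7% held TATAAA and 6.57% held TTCNNNGAA (a STAT motif), each on either strand. Neither of the 2 windows shown held TATAAA or TTCNNNGAA. Promoter sequences were listed for 5 of the 7 genes, with 9 start sites, and CASP9 and CASP6 starts resembled the first CASP2 start with 25 to 29 CpG, while the 3 CASP8 starts held 5 or 6.

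**Figure D2:**
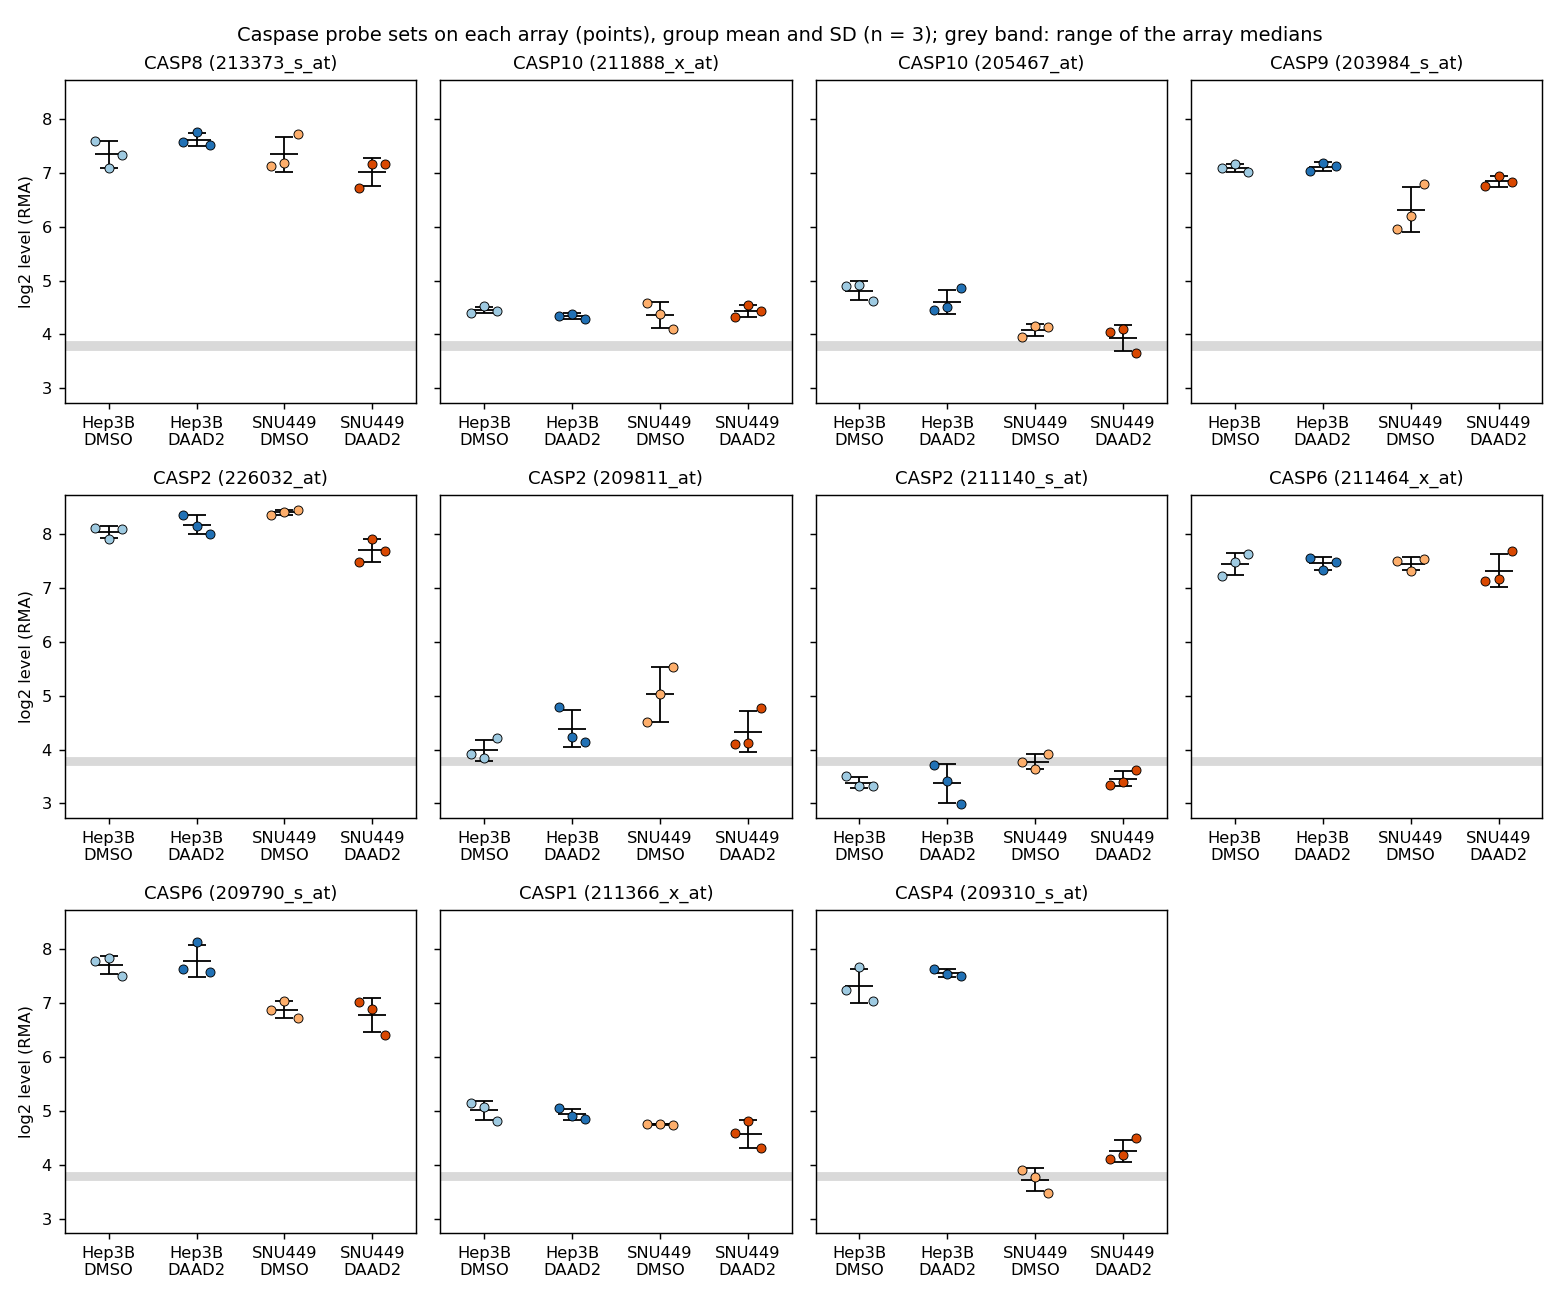
RMA log2 level (y axis) of the brightest probe set of each caspase gene and of every other caspase probe set called in SNU449 or between the untreated lines, on every array of the 4 groups (x axis), with points for arrays, bars for mean and SD (n = 3) and a grey band for the range of the array medians. CASP2 226032_at drops to between 7.49 and 7.91 with DAAD2 in SNU449, and CASP4 209310_s_at is at 7.03 or higher on every Hep3B array and at 4.49 or lower on every SNU449 array.

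**Figure D3:**
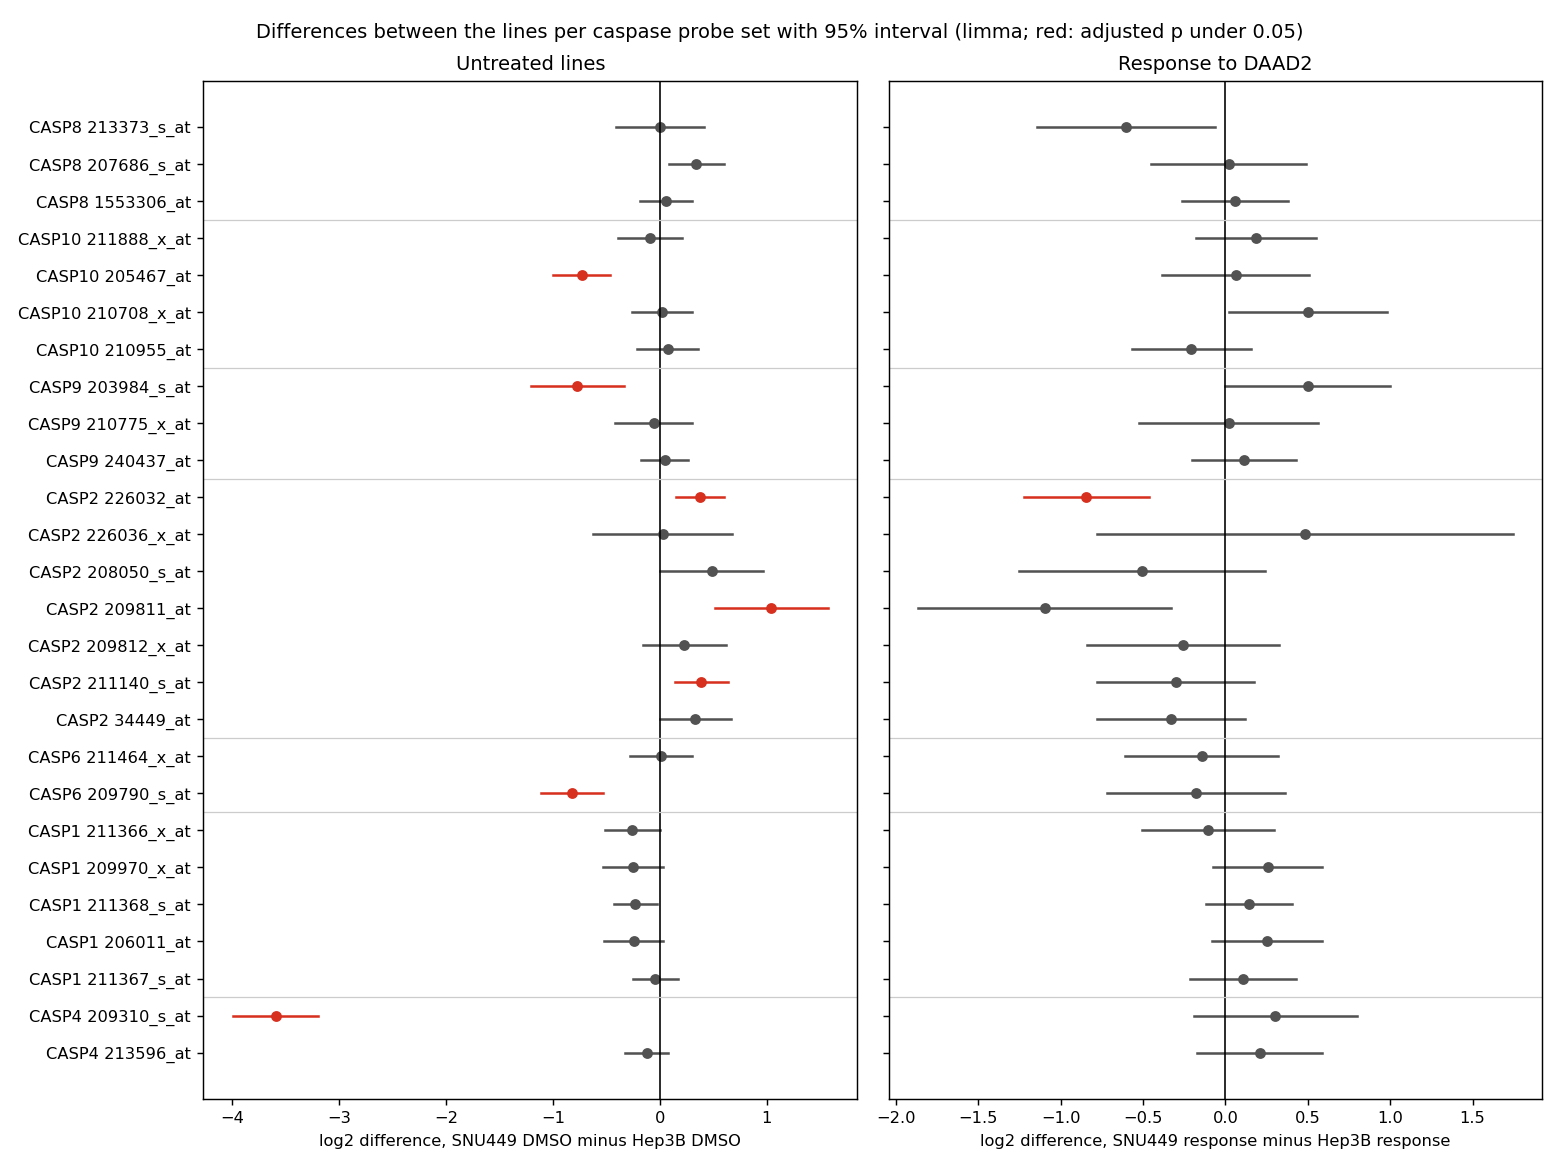
Log2 difference (x axes) of each caspase probe set (rows) between SNU449 and Hep3B controls (left) and between the DAAD2 responses of the lines (right), with points for limma's estimate, bars for its 95% interval and red for an adjusted p under 0.05. In the left panel 7 probe sets are red, with CASP4 209310_s_at far to the left at -3.59, and in the right panel CASP2 226032_at at -0.84 is the only red one.

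Partners of the caspases were read from 6 lists of adaptors, inhibitors, mitochondrial release factors, death receptors and ligands, inflammasome genes and substrates. One probe set stood for each gene, and 47 of the 50 listed genes had one. In Hep3B 0 of 47 were called, and in SNU449 2 were higher and 0 lower, beside 1.82% and 0.561% of all genes. The substrate list, with the lamins LMNA and LMNB1, the nuclease inhibitor DFFA and PARP1, had a median of 0.35 in Hep3B and 0.01 in SNU449, and all 8 of its Hep3B estimates were positive, from 0.05 to 0.55, without passing. The median over all genes was -0.01 in Hep3B, and over the 26777 probe sets whose Hep3B mean was above the median of all values it was 0.06. Adaptors, inhibitors and release factors also had positive Hep3B medians, of 0.18, 0.16 and 0.10. Those of the death receptor and inflammasome lists were -0.09 and -0.10.

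Among adaptors, 0 of 7 passed in either line. FADD, the adaptor of caspase-8 and caspase-10, APAF1, the scaffold of the apoptosome, and PIDD1, the scaffold that activates caspase-2, had Hep3B differences of 0.18, 0.14 and 0.05. CRADD, which links PIDD1 to caspase-2, gave 0.21 in Hep3B and -0.43 in SNU449 (limma adjusted p = 0.472 and 0.205). Of 8 inhibitors and 4 mitochondrial release factors, which include the inhibitor-of-apoptosis antagonist DIABLO, 0 passed in either line. CFLAR, the inhibitor of caspase-8 at death receptors, had positive estimates in both lines, 0.49 in Hep3B and 0.59 in SNU449, at adjusted p of 0.0975 and 0.0864. Other partners that were not called but had an adjusted p under 0.1 were the apoptosome inhibitor AVEN (0.66), the caspase-1 substrate IL18 (0.60) and the death ligand TNFSF10 (-0.76) in Hep3B, and the adaptor TRADD (0.46), the kinase DAPK1 (0.54) and the inflammasome regulator CARD8 (0.86) in SNU449. The limit of 0.1 was not part of the rule for naming partners. How many of all genes fell under it was not counted, so CFLAR and these partners have no background.

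Death receptors and ligands had 1 of 8 called, in SNU449. TNFRSF1A, a receptor of tumour necrosis factor, rose from 8.43, 8.46 and 8.24 with DMSO to 9.21, 8.85 and 9.37 with DAAD2, with no overlap (log2 difference 0.77, SE 0.15, limma adjusted p = 0.0472). This call was lost, with adjusted p of 0.103 to 0.215, when any SNU449 array other than DAAD2 array 2 was left out, and with quantile normalization (adjusted p = 0.0800), cyclic loess (adjusted p = 0.0686) or the replicate block (adjusted p = 0.12). In Hep3B its difference was -0.04. The interaction of TNFRSF1A did not pass (0.81, adjusted p = 0.0548), so a difference between the lines was not shown for this receptor.

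Inflammasome genes and substrates had 1 of 12 called in SNU449. IL1B, a substrate of caspase-1, rose from 6.10, 5.58 and 5.79 with DMSO to 7.47, 7.10 and 6.87 with DAAD2, with no overlap (log2 difference 1.32, SE 0.18, limma adjusted p = 0.0158). The call was lost without SNU449 DMSO array 2 or 3 or DAAD2 array 1, at adjusted p of 0.0667 to 0.0905. In Hep3B IL1B was at 5.15, 5.11 and 4.76 with DMSO and at 5.07, 4.74 and 4.63 with DAAD2. Its response differed between the lines by 1.51 (SE 0.26, adjusted p = 0.0115). GSDMD, which encodes gasdermin D, differed by -0.08 in Hep3B and 0.04 in SNU449.

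The test of the difference between the lines passed for 5 of 47 partners, 2 higher and 3 lower in SNU449, beside 1.46% and 1.82% of all genes, and these were named after their values were seen. TNFSF10, the ligand TRAIL, had the largest difference at 1.62 (SE 0.29, limma adjusted p = 0.0141). Its level was at 7.56, 7.55 and 7.26 in Hep3B controls and 6.79, 6.66 and 6.64 with DAAD2, against 4.45, 4.10 and 3.57 and then 5.27, 4.77 and 4.65 in SNU449. The arrays did not overlap in either line, and neither line passed alone (adjusted p = 0.0706 and 0.150). IL1B was the other higher one. The lower ones were CYCS, cytochrome c (-0.59), AVEN, an inhibitor of apoptosome assembly (-0.96), and PARP1 (-0.82), with adjusted p of 0.0366, 0.0383 and 0.0361, and each of these 3 lost its call without any 1 of several arrays and with another scaling, with adjusted p up to 0.106.

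Between the untreated lines 29 of the 47 partners differed, 17 higher and 12 lower in SNU449, where 19.4% of all genes were called higher and 21.4% lower. The called partner with the largest difference in each list is given, a choice made after the values were seen. These were FADD (log2 difference -1.74), CFLAR (1.45), DIABLO (1.15), TNFSF10 (-3.42), IL18 and the lamin LMNA (1.01). Of 12 inflammasome genes and substrates, 3 were higher and 2 lower in SNU449 and 7 did not pass. PYCARD, the inflammasome adaptor that recruits caspase-1, was at 7.37, 7.43 and 7.09 in Hep3B controls and at 3.90, 3.86 and 3.90 in SNU449 controls. The SNU449 values were close to the array medians, and with the same floor the level was an estimated 10.6-fold lower there (limma adjusted p = 6.12e-08). IL18, another substrate of caspase-1, was at 3.88, 3.97 and 3.78 in Hep3B controls, again close to the array medians. It had a mean of 7.57 in SNU449 controls, an estimated 12.9-fold higher (limma adjusted p = 3.12e-06). Both fold values leave out sampling error. The other called ones were CARD8 (-0.997), IL1B (0.82) and GSDMD (0.74).

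**Figure D4:**
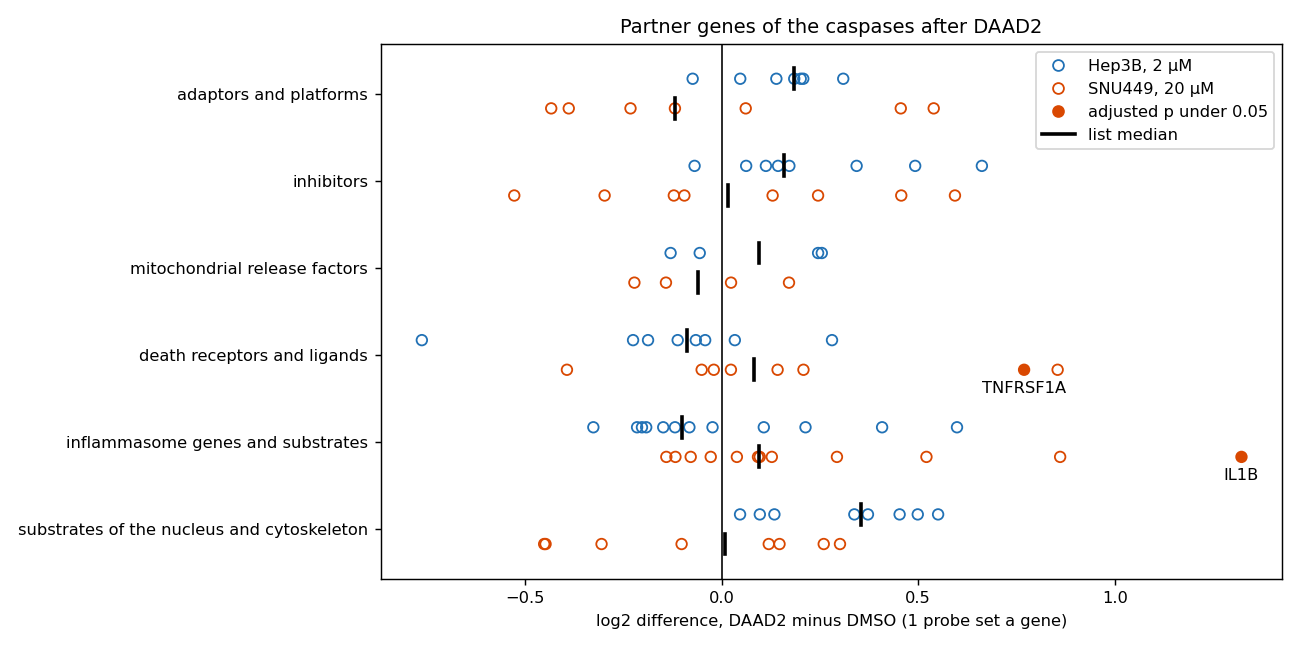
Log2 difference between DAAD2 and DMSO (x axis) of the partner genes (circles, 1 probe set a gene) in 6 lists (rows), for Hep3B (blue) and SNU449 (orange), with a black bar for the list median and filled circles for an adjusted p under 0.05. The filled circles are TNFRSF1A at 0.77 and IL1B at 1.32, both in SNU449, and in Hep3B the substrate list has the highest median at 0.35.

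The genes most like each caspase were sought by Pearson's r between brightest probe sets over the 12 arrays, which share lines, treatments and RMA scaling, so r is a description. CASP2 226032_at came closest to KIF11, a mitotic kinesin (r = 0.96), and UNG, a uracil-DNA glycosylase (r = 0.96), and 13 genes had r over 0.9. CASP4 209310_s_at came closest to SLC44A1, a choline transporter, and HIC2, a transcriptional repressor (r = 0.996 and 0.995), but 2527 genes had r over 0.9 with it, since its 12 values fell into a high Hep3B and a low SNU449 cluster. For CASP9 the closest were RAB33B and MIOS (0.93 each), for CASP8 TAF3 and ALG10 (0.93 and 0.92), and for CASP1 C9orf40 and METAP1D (0.94 and 0.92). No gene had r over 0.9 with CASP10 211888_x_at or CASP6 211464_x_at, whose closest were GPR155 (0.84) and PTGER1 (0.90).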

How the data were processed

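Total RNA of Hep3B and SNU449 cells was hybridised to Affymetrix U133 Plus 2.0 arrays. The deposited log2 values were made by the authors with RMA, which corrects background, quantile-normalizes arrays and summarises probe sets (version not given in the sources used here). Of all columns, 0 belonged to other samples. After 62 control probe sets were left out, 54613 probe sets were tested without a filter, in limma 3.58.1 (R 4.3.3, two-sided, eBayes), per line on 6 arrays, between the DMSO groups on 6 arrays, and for the interaction on 12. The Benjamini-Hochberg adjustment ran over every tested probe set, with 0.05 as threshold. Names came from the platform annotation, with 41091 probe sets of 1 symbol, 1801 of several and 11721 of none. Every caspase probe set was reported. Partners called in a line were named by rule, and others after their values were seen. The members and lists were chosen with earlier results of these data known. Exact permutation of 3 and 3 arrays gives no two-sided p below 0.1. The arrays' number limits the precision. Bounds between the lines took the median of an array as its floor, a choice made after seeing the data, and carry no sampling error. The fits were tested on simulated data. Alternatives were other scalings, a filter, variance models, a replicate block, a gene mean, a fold rule and single arrays left out. Promoter windows came from RefSeq (GRCh38.p14), and figures from Python 3.11.15 with matplotlib 3.10.9. Same-numbered DMSO and DAAD2 arrays deviated with correlations of -0.27 to 0.09, so numbers were not used as pairs.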

Additional observations from a re-analysis of the deposited data

Results flagged for a closer look

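CASP2 226032_at responded differently in the 2 lines: the difference between DAAD2 and DMSO was lower in SNU449 than in Hep3B by 0.84 (log2 difference -0.84, SE 0.18, interaction term of limma, adjusted p = 0.0286). This call was lost with the replicate block (adjusted p = 0.0679) and without any 1 of 8 of the 12 arrays (adjusted p up to 0.0825). Without any 1 of these 8, calls over all probe sets also fell, from 435 higher and 661 lower. They were then 223 to 395 higher and 211 to 428 lower. The difference was 0.13 in Hep3B and -0.71 in SNU449, with 3 of 3 SNU449 DAAD2 arrays below all 3 control arrays. The doses were 2 μM and 20 μM, and line and dose cannot be told apart. The other 6 CASP2 probe sets gave interaction estimates from -1.10 to 0.48, and none of them passed.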

How the results depend on the processing

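In Hep3B 0 caspase probe sets were called under the alternatives tried, which were 3 scalings, a filter on dim probe sets that left 16 of the 26, all arrays in one fit, another variance model, the replicate block, each array left out, the mean per gene, which tested 7 genes, and a rule of 1.5-fold with unadjusted p under 0.05. Over all probe sets the Hep3B count of 0 became 68 higher and 9 lower with arrays centred on their median, 123 and 31 with all arrays in one fit, and 271 and 48 with the trended, robust variance model. With so few calls, 0 among the 26 caspase probe sets carries little weight. The SNU449 count of 1 went to 0 with arrays centred on their median (CASP2 226032_at adjusted p = 0.0613), with the replicate number as a block (adjusted p = 0.0809) and with the mean per gene, to 2 with the fold rule, and lay between 0 and 1 with 1 array left out. The count of 1 for the difference between the lines went to 0 with the replicate block (adjusted p = 0.0679) and with the mean per gene, to 3 with the fold rule, and lay between 0 and 1 with 1 array left out. In the runs with 1 array left out, 93 to 595 of all probe sets were higher and 11 to 573 lower in SNU449. For the difference between the lines these counts were 223 to 719 and 211 to 1602. How many of all probe sets met the fold rule was not counted, so its counts of 2 and 3 have no background. At limma's unadjusted p under 0.05 alone, 3258 of 54613 were higher and 4395 lower in this test. In SNU449 the numbers were 3279 and 3166. The count of 7 between untreated lines was 3 with the mean per gene (CASP2, CASP4 and CASP6). There 7 genes and not 26 probe sets were tested, and the share of all genes called was not counted. With 1 array left out the caspase count lay between 5 and 8. Of all 54613 probe sets, 6831 to 7540 were then higher and 6931 to 7519 lower. The block moved the caspase count to 8, beside 8200 higher and 8033 lower of all, a similar share. No direction was reversed. Over all alternatives CASP2 226032_at kept log2 differences of -0.82 to -0.61 in SNU449 with adjusted p of 0.00648 to 0.178. The causes of these changes were not tested. For the partner genes the alternatives were chosen after seeing the data. Limits are 3 arrays a group and 9 of 26 caspase probe sets not above the median signal.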
